A study of Mus musculus with 3 samples.

Results

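The SLC25 mitochondrial carriers were taken as every gene with an mRNA row whose symbol was Slc25a followed by a number, which gave 47 of the 46316 gene symbols in the deposited tables. Each carrier was represented by its mRNA row with the highest read count summed over the libraries. RNA had been sequenced from C2C12 cells, an immortalised mouse myoblast line, after 4 days of myogenic differentiation. There were 3 libraries, 1 per group. The first came from cells labelled Drp1 knockout (KO), the second from such knockout cells transiently expressing FLAG-Drp1 (rescue), and the third from wild-type cells (WT). Drp1, encoded by Dnm1l, is the GTPase that divides mitochondria. How the knockout was made, whether the cells were 1 clone, and what share of the rescue cells expressed FLAG-Drp1 is not stated in the labels. With 1 library per group no difference below has a replicate check, and each statement describes these libraries only. In such bulk libraries fewer cells of a type and less RNA per cell cannot be told apart.

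SLC25 carriers are nuclear-encoded membrane proteins, most of them in the mitochondrial inner membrane, that exchange or import nucleotides, phosphate, organic acids, amino acids and cofactors between cytosol and matrix. Their polypeptides are made in the cytosol, and those of the inner membrane are inserted through the TIM22 carrier import route. In muscle the ADP/ATP carrier and the phosphate carrier supply ATP synthase with its substrates and export the ATP that contraction uses.

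Gene counts summed to 13790445 in KO, 13925300 in rescue and 13894081 in WT. Dnm1l had 1284 counts in KO, 1481 in rescue and 1823 in WT, and where the gene was altered is not stated, so its RNA level is no check of the label. Muscle identity was seen in every library, with summed levels of 8 differentiated muscle markers of 23136 TPM in KO, 27353 TPM in rescue and 21481 TPM in WT. Of the 8, 1 was 2-fold lower in KO than in WT, the creatine kinase Ckm, with 1424 counts in KO, 3527 in rescue and 4406 in WT. Myog (log2 ratio 0.47), Myh3 (0.33) and Acta1 (0.22) were higher in KO than in WT, and the list had 4 members above 0 and 4 below. In rescue against KO all 8 had intervals above 0, beside 17.7% of all genes. Their median log2 ratio in that pair was 0.33, or 0.24 with the trend of the ratio on transcript length removed. The myoblast markers were lower in KO than in WT, with log2 ratios of -0.60 for Myf5 and -0.55 for Myod1, and in rescue than in WT, with -0.71 and -0.30. Their list held 154 TPM in KO, 157 TPM in rescue and 217 TPM in WT, and its remaining gene, Pax7, had at most 8 counts. Markers of fat, endothelium and blood had at most 1 count per gene. Of the 4 fibroblast markers, Thy1 and Lum had at most 9 counts, Pdgfra had 240 counts in KO, 191 in rescue and 112 in WT, and Dcn had 1787 in KO, 1792 in rescue and 5177 in WT. The list had a summed level of 199 TPM in KO, 183 TPM in rescue and 526 TPM in WT. The part of any of these in the carrier results was not tested. The KO library also differed from both others by transcript length. Ratios with that trend removed are given for the carriers whose 1.5-fold call changed and for some others.

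Of the 47 carriers, 39 reached a mean of 1 CPM (counts scaled to library size) and are compared below. Levels between genes were compared per length, as TPM over genes with an mRNA row. The phosphate carrier Slc25a3 had the highest level, with 851 TPM in KO, 868 TPM in rescue and 1027 TPM in WT. It was followed by the ADP/ATP carriers Slc25a4 (556 TPM in KO, 625 TPM in rescue, 672 TPM in WT) and Slc25a5 (530 TPM in KO, 545 TPM in rescue, 694 TPM in WT). These 3 genes made up 58.4% of the summed carrier level in KO, 61.7% in rescue and 65.8% in WT. The next carriers by mean level were Slc25a39, which is needed for glutathione import, the 2-oxoglutarate carrier Slc25a11 and the iron importer Slc25a37. All carriers together held 3321 TPM in KO, 3300 TPM in rescue and 3640 TPM in WT. A level depends on the row used. Slc25a40 was at 2.29 TPM in KO on its chosen row of 25779 bases and at 18.3 TPM on a row of 2748 bases that held nearly as many counts.

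**Figure D1:**
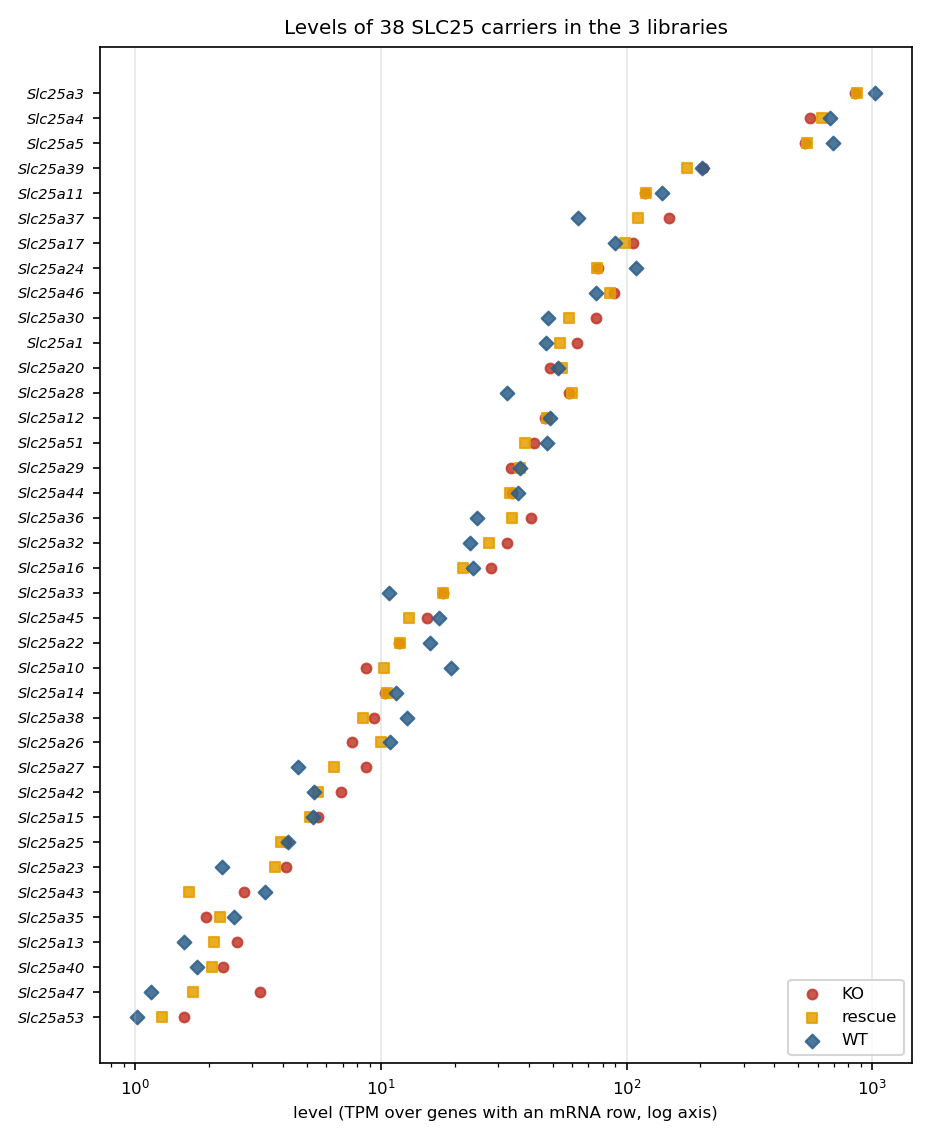
Level of 38 carriers with a mean of 1 CPM or more, in TPM over genes with an mRNA row on a log axis, in the KO, rescue and WT libraries (1 point per library). Slc25a3, Slc25a4 and Slc25a5 are the 3 highest in every library, and the WT point of Slc25a37 (63.4 TPM) lies left of KO (149 TPM) and rescue (112 TPM).

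Between KO and WT carriers differed in both directions. Both mitochondrial iron importers, both pyrimidine nucleotide carriers and the uncoupling-like Slc25a27 were higher in KO, while the dicarboxylate carrier Slc25a10 was lower. By smaller amounts Slc25a24, Slc25a26, Slc25a38 and Slc25a22 were lower, followed by the abundant ADP/ATP and phosphate carriers. The median log2 ratio of the 39 carriers was -0.09, beside 0.00066 for all 13381 genes tested. At 2-fold or more 2 carriers were higher, Slc25a37 and Slc25a47, beside 5.35% of all genes (5.13% of the carriers). Slc25a10 was the 1 carrier at least 2-fold lower, beside 4.07% of all genes (2.56% of the carriers). At both sides the 2-fold share is near or below that of all genes. At 1.5-fold or more 8 carriers were higher (20.5%), beside 12.1% of all genes, and 1 was lower (2.56%), beside 10.4% of all genes. The 95% counting interval of the ratio lay above 0 for 13 carriers and below 0 for 10, beside 29.0% and 29.3% of all genes. Counting intervals cover counting error only. Just short of 1.5-fold were Slc25a30 (log2 ratio 0.58), Slc25a53 (0.57), Slc25a26 (-0.57) and Slc25a24 (-0.58).

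**Figure D2:**
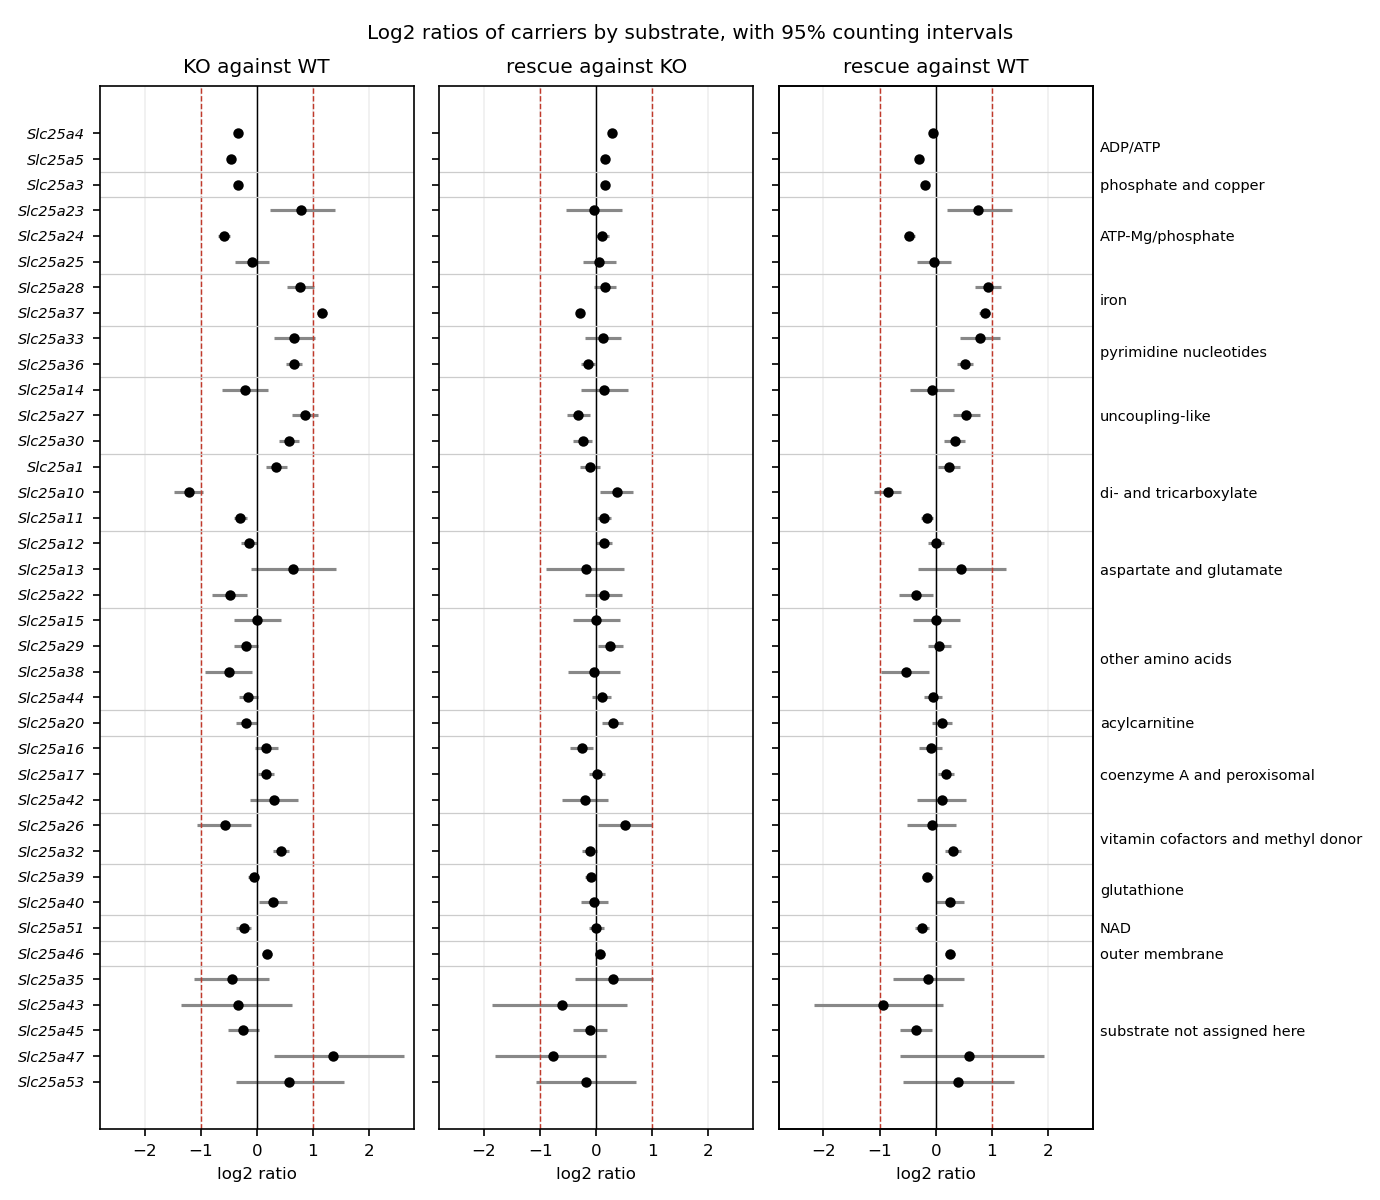
Log2 ratio of 38 carriers in KO against WT, rescue against KO and rescue against WT, grouped by transported substrate. Points are ratios of 1 library to 1 library, grey lines are 95% counting intervals, and dashed lines mark 2-fold. In KO against WT the iron and pyrimidine nucleotide carriers lie right of 0 and Slc25a10 lies left of -1.

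The iron importers, mitoferrin-1 (Slc25a37) and mitoferrin-2 (Slc25a28), bring iron into the matrix for haem and iron-sulphur cluster synthesis. Slc25a37 is best known from developing red cells, and Slc25a28 is expressed widely. Slc25a37 had 3345 counts in KO, 2725 in rescue and 1519 in WT. It was 2.24-fold higher in KO than in WT (log2 ratio 1.16, interval 1.08 to 1.25) and 1.83-fold higher in rescue than in WT (0.87, interval 0.78 to 0.96). Slc25a28 had 403 counts in KO, 448 in rescue and 239 in WT. It was 1.71-fold higher in KO than in WT (0.78, interval 0.54 to 1.02) and 1.91-fold higher in rescue than in WT (0.93, interval 0.71 to 1.17). For both genes the KO and rescue libraries were high and the WT library low. Rescue against KO, Slc25a37 was lower (log2 ratio -0.29, interval -0.37 to -0.22), and the interval of Slc25a28 included 0 (0.16, interval -0.04 to 0.35). Summed per length, the iron importers held 207 TPM in KO, 171 TPM in rescue and 95.9 TPM in WT, of which Slc25a37 made up 71.8% in KO, 65.1% in rescue and 66.1% in WT. With the trend of the ratio on transcript length removed, the KO to WT ratio was 1.11 for Slc25a37 and 0.91 for Slc25a28.

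The pyrimidine nucleotide carriers Slc25a33 and Slc25a36 supply the matrix with pyrimidine nucleotides for mitochondrial DNA and RNA synthesis. Slc25a36 had 1055 counts in KO, 952 in rescue and 675 in WT, and Slc25a33 had 166 counts in KO, 180 in rescue and 106 in WT. Both were 1.59-fold higher in KO than in WT, but with the length trend removed Slc25a36 had a log2 ratio of 0.58, just short of 1.5-fold, and Slc25a33 one of 0.75. The intervals were 0.53 to 0.81 around a log2 ratio of 0.67 for Slc25a36 and 0.31 to 1.04 around 0.67 for Slc25a33. In rescue against WT the log2 ratios were 0.52 (interval 0.38 to 0.67) for Slc25a36 and 0.79 (interval 0.44 to 1.15) for Slc25a33. As for the iron importers, WT was the lowest of the libraries for both genes.

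Among rows with 100 or more counts in KO and WT together, Slc25a36 was also the carrier whose transcript rows differed most, an observation made after the values were seen. Of its 4 mRNA rows, the chosen row of 5222 bases and one of 5268 bases held equal counts. A row of 2619 bases, the predicted variant X3, had 165 counts in KO, 96 in rescue and 47 in WT. It was 3.55-fold higher in KO than in WT (log2 ratio 1.83, interval 1.36 to 2.34), above the 0.67 of the chosen row. Rescue against KO, the same row had a log2 ratio of -0.78 (interval -1.16 to -0.41). As a share of the highest row, its counts were 15.6% in KO, 10.1% in rescue and 6.96% in WT. The remaining row of 3061 bases had 711 counts in KO, 575 in rescue and 417 in WT. Its KO against WT log2 ratio was 0.79 (interval 0.62 to 0.97). Rows of a gene share reads and are not separate measurements. Among the 25 carriers with several such rows, the range of the KO against WT ratio over rows was at most 0.14 apart from Slc25a36.

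**Figure D3:**
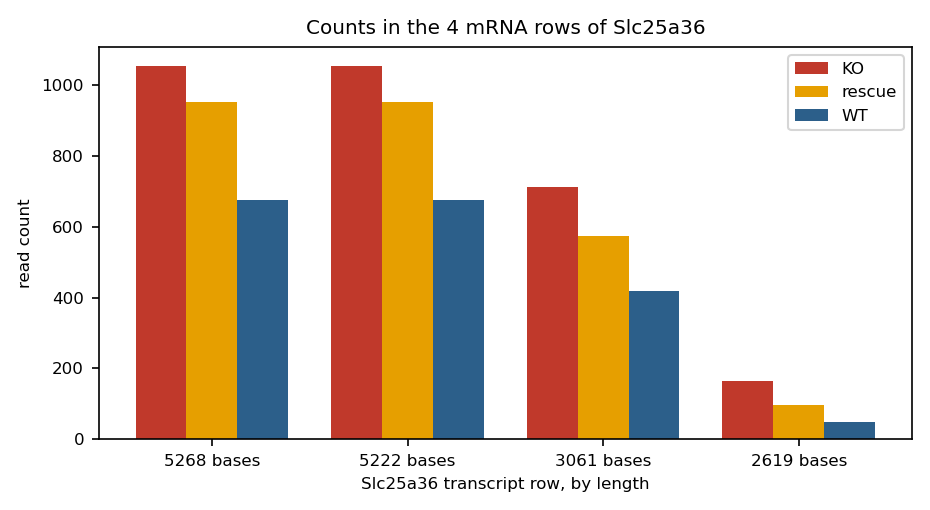
Read counts in the 4 mRNA rows of Slc25a36, ordered by transcript length, in the KO, rescue and WT libraries (1 library each, no error bars). The row of 2619 bases holds 165 counts in KO, 96 in rescue and 47 in WT.

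Promoter sequences are shown for carriers whose KO and WT values differed by 1.5-fold or more, with 100 or more counts in the higher library and an entry in the RefSeq promoter table (GRCm38.p6). Slc25a27 and Slc25a37 met the fold and count limits but had no entry in that promoter table. The sequence is the 250 bases before the annotated start, 5′ to 3′ on the gene's strand. Capitals mark matches on either strand to 1 of 7 motifs chosen after the sequences were seen. These were the cAMP response element TGACGTCA, the C/EBP-ATF element TGATGNAA, the GABPA motif CCGGAAG, the NRF1 motif, the ERR motif AAGGTCA, the E-box CACGTG and the CCAAT box. The windows lay at chr19:43674882-43675131 (minus strand) for Slc25a28, chr4:149774268-149774517 (minus strand) for Slc25a33, chr9:97111042-97111291 (minus strand) for Slc25a36 and chr11:120491587-120491836 (plus strand) for Slc25a10.
Slc25a28: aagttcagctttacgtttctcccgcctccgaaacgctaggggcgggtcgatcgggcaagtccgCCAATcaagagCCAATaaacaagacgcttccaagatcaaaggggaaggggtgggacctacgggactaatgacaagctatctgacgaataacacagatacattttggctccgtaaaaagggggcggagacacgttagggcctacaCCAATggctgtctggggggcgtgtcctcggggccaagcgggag
Slc25a33: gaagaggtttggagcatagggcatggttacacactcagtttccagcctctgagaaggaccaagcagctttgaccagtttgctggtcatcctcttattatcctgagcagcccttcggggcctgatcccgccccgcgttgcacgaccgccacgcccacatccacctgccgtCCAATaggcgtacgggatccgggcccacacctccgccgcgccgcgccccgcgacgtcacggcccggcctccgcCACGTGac
Slc25a36: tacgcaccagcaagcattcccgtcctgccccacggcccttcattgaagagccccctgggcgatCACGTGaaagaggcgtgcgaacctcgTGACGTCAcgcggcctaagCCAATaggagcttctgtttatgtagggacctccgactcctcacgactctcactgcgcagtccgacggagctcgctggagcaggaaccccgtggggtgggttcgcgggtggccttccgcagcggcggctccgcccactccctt
Slc25a10: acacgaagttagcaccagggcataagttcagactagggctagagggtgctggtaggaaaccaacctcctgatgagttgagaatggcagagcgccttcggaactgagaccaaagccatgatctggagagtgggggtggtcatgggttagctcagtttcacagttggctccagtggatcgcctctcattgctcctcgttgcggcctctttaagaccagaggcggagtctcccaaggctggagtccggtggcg

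The Slc25a28 window held 3 CCAAT boxes. The Slc25a33 and Slc25a36 windows each held 1 CCAAT box and 1 CACGTG, and that of Slc25a36 also held TGACGTCA. The Slc25a10 window matched none of the 7 motifs. Over all 32851 windows of the table CCAAT was found in 33.8%, CACGTG in 6.02% and TGACGTCA in 1.55%. Over the 46 windows of the 36 carriers in the table these shares were 45.7%, 17.4% and 4.35%. CCGGAAG was found in 13.0% of carrier windows and 6.91% of all windows, among them those of Slc25a3 and Slc25a4. The NRF1 motif was found in 4.35% of carrier windows and 3.74% of all, AAGGTCA in 2.17% and 4.08%, and TGATGNAA in 0 of 46 carrier windows and 3.45% of all. CACGTG and TGACGTCA share no base in these matches. A match is a description of the letters only.

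The ADP/ATP carriers exchange matrix ATP for cytosolic ADP. Slc25a4 is the form of heart and skeletal muscle, and Slc25a5 the form of proliferating cells. Slc25a4 had 3656 counts in KO, 4457 in rescue and 4704 in WT, and was 1.26-fold lower in KO than in WT (log2 ratio -0.34, interval -0.40 to -0.28). Slc25a5 had 3389 counts in KO, 3779 in rescue and 4723 in WT, and was 1.37-fold lower in KO (-0.45, interval -0.52 to -0.39). The muscle form made up 51.2% of their summed level in KO, 53.4% in rescue and 49.2% in WT, so both forms were expressed at similar levels throughout. The testis form Slc25a31 had 0 counts in KO and in rescue and 1 count in WT. Slc25a4 and Slc25a5 are close in sequence, and how reads matching both were counted is not stated. The pseudogene Slc25a5-ps had 2 counts in KO, 3 in rescue and 2 in WT.

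The phosphate carrier Slc25a3, which also carries copper for cytochrome oxidase, had 5794 counts in KO, 6410 in rescue and 7445 in WT. It was 1.26-fold lower in KO than in WT (log2 ratio -0.34, interval -0.39 to -0.29), close to the ratio of Slc25a4. Against WT the rescue library was lower for Slc25a3 (-0.19, interval -0.24 to -0.14) and Slc25a5 (-0.29, interval -0.36 to -0.23), and its interval for Slc25a4 included 0 (-0.05, interval -0.11 to 0.01). In rescue against KO the log2 ratios were 0.29 for Slc25a4, 0.16 for Slc25a5 and 0.15 for Slc25a3, with every interval above 0.

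These 3 carriers have short transcripts of 1295 to 1379 bases, a class that was lower in the KO library as a whole. In the second decile of length (1078 genes, median 1532 bases), which held 12 of the 39 carriers, the median log2 ratio of all genes was -0.12 (KO against WT) and 0.14 (rescue against KO). In the longest decile (median 9559 bases) it was 0.20 and -0.21. With the length trend removed, KO against WT was -0.20 for Slc25a3, -0.20 for Slc25a4 and -0.32 for Slc25a5, and rescue against KO was 0.0085, 0.14 and 0.0095. Rescue against WT had no such length trend, with decile medians from -0.02 to 0.03. The part of transcript length in these ratios was not tested beyond that removal.

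**Figure D4:**
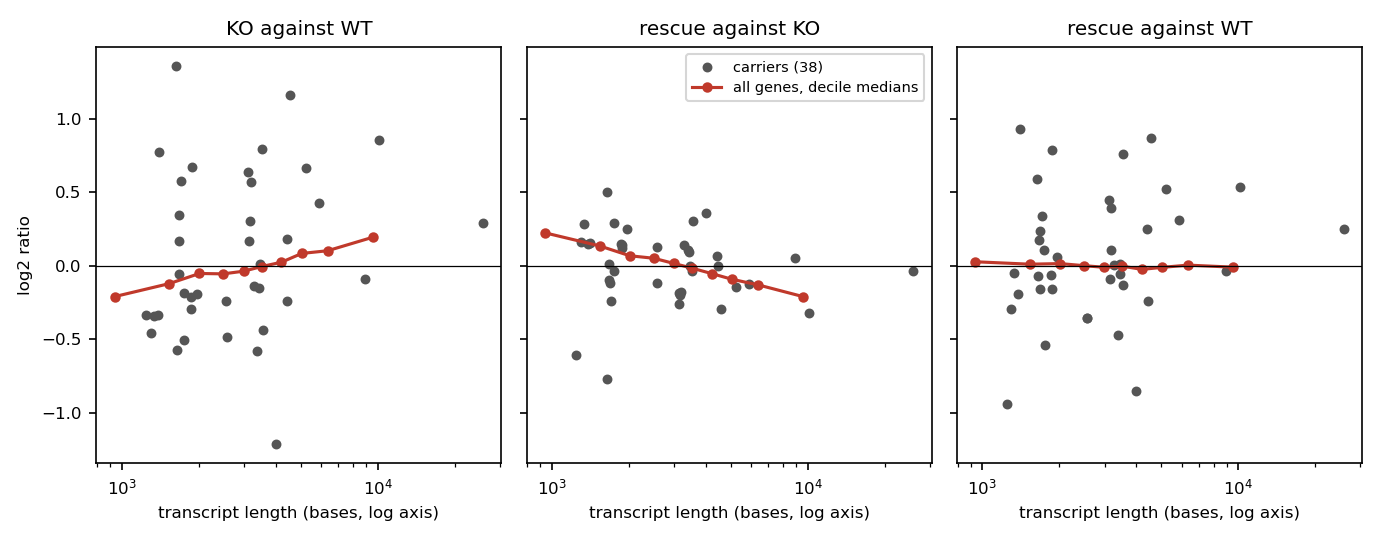
Log2 ratio against transcript length in bases (log axis) for KO against WT, rescue against KO and rescue against WT. Grey points are 38 carriers and the red line joins the medians of all genes with an mRNA row in 10 length deciles. The line rises with length from -0.21 to 0.20 for KO over WT, falls from 0.23 to -0.21 for rescue over KO and stays near 0 for rescue over WT.

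The ATP-Mg/phosphate carriers, which set the adenine nucleotide content of the matrix, did not share a direction. Slc25a24 had 1280 counts in KO, 1380 in rescue and 1949 in WT, and was lower in KO than in WT (log2 ratio -0.58, interval -0.68 to -0.48) and in rescue than in WT (-0.47, interval -0.57 to -0.37). Slc25a23 had 72 counts in KO, 70 in rescue and 42 in WT, and was 1.74-fold higher in KO (0.80, interval 0.23 to 1.39) and 1.69-fold higher in rescue (0.76, interval 0.19 to 1.35) than in WT. Slc25a25 had 181 counts in KO, 188 in rescue and 196 in WT, and all its intervals included 0. The fourth member, Slc25a41, had 0 counts in every library.

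Among the carriers related in sequence to the uncoupling proteins, Slc25a27 had 435 counts in KO, 348 in rescue and 244 in WT. It was 1.81-fold higher in KO than in WT (log2 ratio 0.86, interval 0.63 to 1.09), or 0.67 with the length trend removed (its row has 10126 bases). Rescue against KO it was -0.32 (interval -0.53 to -0.11), or -0.12 with the trend removed. Slc25a30, first described in kidney, had 631 counts in KO, 533 in rescue and 430 in WT, and was 1.49-fold higher in KO than in WT (0.58, interval 0.40 to 0.76), or 0.68 and so past 1.5-fold with the trend removed. For both genes rescue lay between KO and WT, with log2 ratios against WT of 0.54 for Slc25a27 and 0.34 for Slc25a30. Slc25a14 had 95 counts in KO, 105 in rescue and 112 in WT, within counting error in every pair. Uncoupling proteins under their own symbols are not in the rule and went other ways. Ucp2 had 192 counts in KO, 197 in rescue and 516 in WT and was 2.64-fold lower in KO than in WT (log2 ratio -1.40, interval -1.65 to -1.16) and 2.56-fold lower in rescue than in WT. Ucp3, the form of skeletal muscle, had 37 counts in KO, 91 in rescue and 38 in WT and stood 2.44-fold above KO in the rescue library (1.29, interval 0.74 to 1.89). Ucp1, which makes heat in brown fat, had 0 counts.

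Slc25a10 exchanges malate and succinate for phosphate. It had 172 counts in KO, 221 in rescue and 407 in WT, so WT was high and KO and rescue were low. It was 2.32-fold lower in KO than in WT (log2 ratio -1.21, interval -1.48 to -0.96) and 1.80-fold lower in rescue than in WT (-0.85, interval -1.10 to -0.61), and rescue was 1.29-fold higher than KO (0.36, interval 0.07 to 0.66). In GENCODE vM21 exons of Slc25a10, Slc25a23, Slc25a33 and Slc25a37 overlap antisense genes. Without a stated strand setting reads of both cannot be told apart. The other organic acid carriers had smaller ratios. Slc25a11, the 2-oxoglutarate carrier of the malate-aspartate shuttle, had 1092 counts in KO, 1202 in rescue and 1365 in WT (KO against WT -0.30, interval -0.41 to -0.18). Slc25a1, which exports citrate for fatty acid and sterol synthesis, had 521 counts in KO, 480 in rescue and 416 in WT (0.35, interval 0.16 to 0.54). Slc25a21, the oxodicarboxylate carrier, had 0 counts in every library.

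The aspartate-glutamate carriers also serve the malate-aspartate shuttle. Slc25a12, the form of muscle and brain, made up 94.7% of the summed level of Slc25a12 and Slc25a13 in KO, 95.8% in rescue and 96.9% in WT. Slc25a12 had 754 counts in KO, 830 in rescue and 844 in WT, and its interval in KO against WT included 0 (-0.14, interval -0.28 to 0.01). Slc25a13, the liver form, had 40 counts in KO, 35 in rescue and 26 in WT. Its KO library was 1.56-fold above WT with an interval that included 0 (0.64, interval -0.10 to 1.42). Of the glutamate carriers, Slc25a22 was lower in KO than in WT (151 counts in KO, 165 in rescue, 215 in WT, log2 ratio -0.48, interval -0.79 to -0.18), and Slc25a18 had at most 7 counts in a library.

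For the other amino acids, Slc25a38, which brings in glycine for haem synthesis, had 81 counts in KO, 79 in rescue and 117 in WT. It was lower in KO than in WT (log2 ratio -0.50, interval -0.93 to -0.08) and in rescue than in WT (-0.54, interval -0.97 to -0.11), opposite in direction to the iron importers of the same pathway. The ornithine carrier Slc25a15 (95 counts in KO, 95 in rescue, 96 in WT), the basic amino acid carrier Slc25a29 (327 in KO, 389 in rescue, 380 in WT) and the branched-chain amino acid carrier Slc25a44 (580 in KO, 618 in rescue, 655 in WT) had KO against WT intervals that included 0.

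The carriers of cofactors and acyl groups described here differed by less than 1.5-fold between KO and WT. The folate and FAD carrier Slc25a32 had 943 counts in KO, 866 in rescue and 712 in WT (log2 ratio 0.43, interval 0.29 to 0.57, or 0.32 with the length trend removed), and the S-adenosylmethionine carrier Slc25a26 had 62 counts in KO, 88 in rescue and 94 in WT (-0.57, interval -1.06 to -0.10). The carnitine-acylcarnitine carrier Slc25a20, which brings fatty acids to oxidation, had 419 counts in KO, 513 in rescue and 485 in WT, and was higher in rescue than in KO (0.29, interval 0.11 to 0.48). Of the coenzyme A carriers, Slc25a16 had 435 counts in KO, 362 in rescue and 393 in WT and Slc25a42 had 108 in KO, 94 in rescue and 89 in WT. The peroxisomal carrier Slc25a17 had 872 counts in KO, 877 in rescue and 790 in WT (KO against WT 0.17, interval 0.03 to 0.31).

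The glutathione carrier Slc25a39 had 1693 counts in KO, 1580 in rescue and 1793 in WT, and its KO against WT ratio of -0.06 had an interval that included 0 (-0.15 to 0.04). Its relative Slc25a40 had 291 counts in KO, 283 in rescue and 242 in WT (0.29, interval 0.04 to 0.54), or 0.06 with the length trend removed. Rescue against KO, Slc25a40 was at -0.04 (interval -0.28 to 0.20), or 0.25 with the trend removed. Both trend-removed values use the length of the chosen row, 25779 bases. A row of 2748 bases held 248 counts in KO, 259 in rescue and 227 in WT, so both values depend on the row used. The NAD carrier Slc25a51 had 919 counts in KO, 915 in rescue and 1102 in WT, and was 1.18-fold lower in both KO (-0.24, interval -0.36 to -0.11) and rescue (-0.24, interval -0.37 to -0.11) than in WT. Slc25a46, which sits in the outer membrane and is known for a role in mitochondrial shape, had 1938 counts in KO, 2029 in rescue and 1740 in WT. Its log2 ratio to WT was 0.18 in KO (interval 0.09 to 0.28) and 0.25 in rescue (interval 0.16 to 0.34).

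Of the compared carriers with no substrate assigned here, Slc25a45 had 194 counts in KO, 179 in rescue and 233 in WT, and was lower in rescue than in WT (log2 ratio -0.35, interval -0.64 to -0.06). The others had fewer than 50 counts in each library. Slc25a35 had 34 in KO, 42 in rescue and 47 in WT. Its exons share 1151 bases with Rangrf on the opposite strand, which had 184 counts in KO, 221 in rescue and 201 in WT. Slc25a47, a liver carrier, had 26 counts in KO, 15 in rescue and 10 in WT, so its 2.57-fold higher value in KO than in WT rests on few reads (log2 ratio 1.36, interval 0.30 to 2.62). Slc25a43 had 17 counts in KO, 11 in rescue and 22 in WT, and Slc25a53 had 25 in KO, 22 in rescue and 17 in WT, with intervals that included 0 in every pair. The 8 carriers under 1 CPM were Slc25a2, Slc25a18, Slc25a21, Slc25a31, Slc25a34, Slc25a41, Slc25a48 and Slc25a54, none with more than 7 counts in a library, and 3 of them had 0 counts throughout.

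In rescue against KO, no carrier was 2-fold higher or lower, beside 1.30% and 0.568% of all genes. At 1.5-fold none was higher, beside 3.83% of all genes, and 2 were lower, beside 2.77%. The 2 were Slc25a43 and Slc25a47, with 11 and 15 counts in rescue against 17 and 26 in KO, and both intervals included 0. The counting interval lay above 0 for 9 carriers and below 0 for 5, each beside 17.7% of all genes. The 9 included Slc25a3, Slc25a4, Slc25a5, Slc25a10 and Slc25a20. The 5 were Slc25a16, Slc25a27, Slc25a30, Slc25a36 and Slc25a37. The median log2 ratio of the 39 carriers was 0.01, beside 0.0029 for all genes.

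In rescue against WT, no carrier reached 2-fold, beside 4.59% of all genes higher and 3.06% lower. At 1.5-fold 5 carriers were higher (12.8%), beside 10.4% of all genes, namely Slc25a23, Slc25a28, Slc25a33, Slc25a37 and Slc25a47. Slc25a10 and Slc25a43 were lower (5.13%), beside 7.99% of all genes. The median log2 ratio was 0.0043, beside 0.01 for all genes. The counting interval lay above 0 for 12 carriers and below 0 for 10, beside 26.9% and 25.4% of all genes. Each library enters 2 of the 3 comparisons, so they are not independent of each other.

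Genes around the carriers were described by lists of the same pathway. Of 13 genes of the carrier import route, none reached 1.5-fold between KO and WT, beside 12.1% of all genes higher and 10.4% lower. The median log2 ratio of the list was -0.19 (-0.13 with the length trend removed), beside 0.00066 for all genes. Its receptor Tomm70a had 2203 counts in KO, 2159 in rescue and 1870 in WT (KO against WT 0.26), and its insertion channel Timm22 had 472 in KO, 616 in rescue and 643 in WT (-0.42, interval -0.59 to -0.25). Timm8b, a chaperone of the intermembrane space, stood 1.57-fold above KO in the rescue library (498 counts in rescue, 318 in KO). In rescue against KO the median log2 ratio of the import list was 0.22, or 0.18 with the length trend removed, beside 0.0029 for all genes. The trend was not removed for Timm8b or for other single genes of the lists described here. Of 5 tested enzymes of the malate-aspartate and glycerol phosphate shuttles, none reached 1.5-fold between KO and WT, beside the same shares of all genes. Among those that work with Slc25a11 and Slc25a12, the malate dehydrogenases Mdh1 and Mdh2 were lower in KO than in WT (-0.50 and -0.47). The aspartate aminotransferase Got1 was higher (0.23), and the interval of Got2 included 0 (-0.01, interval -0.10 to 0.08).

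In the carnitine shuttle 2 of 6 genes were at least 1.5-fold higher in KO than in WT and none lower, beside 12.1% and 10.4% of all genes. Cpt1a, the acyltransferase upstream of Slc25a20, had 1103 counts in KO, 845 in rescue and 724 in WT (log2 ratio 0.63, interval 0.50 to 0.77), and Cpt1c had 133 in KO, 114 in rescue and 70 in WT (0.95, interval 0.52 to 1.39). Among 18 other inner membrane transporters 3 were at least 1.5-fold lower in KO than in WT and none higher, beside 10.4% and 12.1% of all genes. They were the uniporter subunit Smdt1 (-0.68), the sodium-calcium exchanger Slc8b1 (-0.62) and the half-transporter Abcb8 (-0.66). These calls were made with the length trend left in. The median log2 ratio of that list was -0.17, or -0.16 with the trend removed. The porins Vdac1, Vdac2 and Vdac3, through which metabolites pass the outer membrane, lay between -0.20 and -0.02. Mitochondrial creatine kinases Ckmt1 and Ckmt2 had at most 3 counts.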

How the data were processed

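RNA was harvested with TRIzol, per the labels' protocols. The submitters' processing notes list featureCounts 2.0.0, HISAT2 2.2.1 and cutadapt 1.9.1, and the build GRCm39; options and strand are not given in the sources used. The deposited count column held whole read counts per transcript row (139023 rows), per the file headers. The RPKM and TPM columns deposited by the authors equalled counts scaled by length and table total, within 4.98e-06 and 4.40e-06, and only counts and lengths were analysed. Over the 5388 genes with several mRNA rows whose top row reached 1000 counts (libraries summed), the median lowest row held 98.0% of the highest row's count, so rows were not added.

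Counts were scaled with edgeR 4.0.16 TMM in R 4.3.3 (factors 1.00 for KO, 0.989 for rescue, 1.01 for WT). TPM was recomputed over 1 row per gene. Log2 ratios were taken after adding 0.5 to each count, with exact conditional (Clopper-Pearson) 95% counting intervals, checked on simulated data. No p-value or SE was computed with 1 library per group. Genes with a mean of 1 CPM were kept. The length trend was a lowess fit (statsmodels 0.14.6, span 0.3). Values are given for carriers 1.5-fold different in any pair and for the 6 with the highest TPM. They are also given for the ADP/ATP, iron, uncoupling-like and NAD groups, and more briefly for the rest. From each other list up to 4 genes with the largest ratio of KO against WT could be named. So could up to 4 of rescue against KO and every 2-fold one. Tomm70a and Got2 were added after their values were seen. Of the compared carriers 1 is not reported here by name or plotted; the counts include it. Members and lists were chosen with earlier results of these data known. A protein table was not used here, so the planned protein features were left out. In GENCODE vM21 (GRCm38) exons of Slc25a10, Slc25a11, Slc25a23, Slc25a26, Slc25a33, Slc25a35 and Slc25a37, among others, overlap a gene on the opposite strand. The counts of these carriers are uncertain to that extent.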

Additional observations from a re-analysis of the deposited data

How the results depend on the processing

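The median log2 ratio of the carriers moved by less than the carriers' median counting interval under all 8 alternatives, though in rescue against KO and rescue against WT, where it is near 0, its sign varied. Counts of carriers past a fold rest on few genes and moved more. In KO against WT the count at 2-fold higher, 2, was 4 with no low-count filter, 1 at a mean of 5 CPM, 1 with rows summed and 4 with the lowest row. The count 2-fold lower, 1, was 4 with no filter. The count 1.5-fold higher, 8, was 5 at 5 CPM, and that 1.5-fold lower, 1, was 2 with DESeq2 size factors, 3 with total counts, 4 with no filter, 2 with rows summed and 2 with the lowest row. In rescue against KO the count 2-fold lower, 0, was 1 with no filter, and that 1.5-fold lower, 2, was 0 at 5 CPM, 1 with 2 added to each count and 0 with rows summed. In rescue against WT the count 2-fold higher, 0, was 2 with no filter and 2 with the lowest row, and that 2-fold lower, 0, was 3 with no filter. The count 1.5-fold higher, 5, was 3 at 5 CPM, and that 1.5-fold lower, 2, was 5 with no filter and 1 at 5 CPM, with rows summed and with the lowest row. Fewer or more carriers enter under the filters and row choices; otherwise the cause was not tested. Scaling moved the median of all genes by under 0.1. Among the 18 carriers named by rule, no ratio at 2-fold changed sign. With the length trend removed Slc25a36 (0.58) left and Slc25a30 (0.68) joined the 8 carriers 1.5-fold higher in KO than in WT. Removing the length trend moved Slc25a3, Slc25a4, Slc25a5 and Slc25a39 beyond their counting intervals in both comparisons with KO (Slc25a39 in KO against WT was 0.04), and the lowest row moved Slc25a36 to 1.82 in KO against WT. No paired analysis was possible because each group holds 1 library, and the spread between cultures is unknown. Depth limits the carriers with under 50 counts.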
